A study of Homo sapiens with 12 samples.

Results

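PTBP1, PTBP2, PTBP3, NOVA1, NOVA2, ELAVL2, ELAVL3, ELAVL4, RBFOX2 and SRRM4 encode RNA-binding proteins that set neuronal patterns of RNA splicing and stability. Their rows were taken by gene symbol from a table of 55771 genes. All 10 were found, and all 10 were among the 20454 genes tested, those reaching a value of 10 in 4 or more of the 12 libraries. The cells were KELLY, an established human neuroblastoma line with amplified MYCN, and it was the only line used. There were 3 groups of 4 RNA-seq libraries: cells given the BPS1 oligonucleotide, cells given BPS2, and cells given a control oligonucleotide. Each was a morpholino, an uncharged antisense oligomer, held by a DNA leash in a lipid complex at 50 nM. Transfection was done in medium with 4% serum, and cells were lysed 48 h later. Control cells had thus been through transfection too, and no untransfected cells were analysed here. No sequence or target site of the 3 oligonucleotides was used here. Nothing in the labels says whether replicates were separate cultures, so each p-value measures the spread over libraries alone, and that spread may be technical. The BPS2 samples are described as KPAS in a second label, so their columns were tied to them by title. A spelling of BSP1 in the header was read as BPS1 replicate 3.

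PTBP1 is a polypyrimidine tract-binding protein that represses neuronal exons in most dividing cells. PTBP2 is its neuronal relative, and the replacement of PTBP1 by PTBP2 during neuronal differentiation releases many exons from repression. PTBP3 is a further paralog, best studied in blood cells. NOVA1 and NOVA2 bind short motifs near neuronal exons, RBFOX2 favours or blocks exons depending on where it binds, and SRRM4 promotes the inclusion of neural microexons. ELAVL2, ELAVL3 and ELAVL4 are the neuronal Hu proteins, which bind AU-rich RNA and affect both stability and splicing. The values below are gene totals, which cannot show which exons a transcript carried. In bulk RNA, fewer cells of a type and less RNA per cell cannot be told apart.

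PTBP1 and PTBP2 are themselves regulated through a short exon whose skipping shifts the reading frame, and PTBP1 is known to cause that skipping in PTBP2 transcripts. The exon is 34 bases long in each of the 3 paralogs. It is shown because it carries the known regulation of PTBP1 and PTBP2 and because the 3 copies can be compared base by base. In each gene it was picked as the 34-base exon found in the most transcripts. Capitals mark the bases that are the same in all 3, which are 19 of 34 or 55.9%, and each exon is written 5′ to 3′ on its gene's strand.
PTBP1: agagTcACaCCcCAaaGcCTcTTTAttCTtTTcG
PTBP2: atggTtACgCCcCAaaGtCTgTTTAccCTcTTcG
PTBP3: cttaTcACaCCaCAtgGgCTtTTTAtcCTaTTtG
On GRCh38 the PTBP1 copy lies at chr19:807869-807902 (+ strand), the PTBP2 copy at chr1:96806419-96806452 (+ strand) and the PTBP3 copy at chr9:112231380-112231413 (- strand). PTBP1 and PTBP2 shared 25 of 34 bases, PTBP1 and PTBP3 shared 22, and PTBP2 and PTBP3 shared 21. GENCODE release 29 lists the exon in 6 of 21 PTBP1 transcripts, with 5 transcripts that skip it, of which 2 are marked for nonsense-mediated decay. It is in 6 of 11 PTBP2 transcripts with 3 that skip it, and in 5 of 8 PTBP3 transcripts with 0 that skip it. Whether its use differed between the groups cannot be read from gene totals.

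The deposited values are normalized counts, and each library summed to between 29.6 and 33.3 M. None of the 10 member rows held whole reads in all 12 libraries, so no counting interval is given for them. A gene is said to have passed or not where it did so in the limma fit of all 12 libraries with equal weights, unless another setting is named. BPS1 replicate 4 and control replicate 1 stood apart. The SD of their deviations from each gene's median over all 12 libraries was 0.594 and 0.471 on the log2 scale over all tested genes. It was 0.377 to 0.425 in the other 10 libraries. These deviations hold group differences as well as replicate spread. A chi-square per gene between replicates, in rows of whole reads, was 33.1 to 38.1 for pairs with BPS1 replicate 4. Other BPS1 pairs had 2.16 to 4.07. Pairs with control replicate 1 had 16.0 to 29.1, and other control pairs 2.83 to 6.34. Both libraries were picked from these same data, so fits without them are no independent check. NEAT1, the gene named in the series text, had 2024 ± 420 normalized counts with BPS1, 4262 ± 412 with BPS2 and 6879 ± 264 in control cells (SD, n = 4 each). It fell by 1.79 on the log2 scale with BPS1 (limma adjusted p = 6.00e-06) and by 0.69 with BPS2 (limma adjusted p = 0.0239). Its row sums its transcripts, so the long transcript alone is not measured by it. Adrenergic neuroblastoma markers were high in every library. The 13 genes summed to 169591 to 225145 with BPS1, 195656 to 209118 with BPS2 and 218694 to 262504 in control cells. CHGA alone averaged 112868 normalized counts in control cells, and GATA3 averaged 520. The 12 mesenchymal neuroblastoma markers were present too, summing to 7573 to 8200 in control cells. The markers of other cell types were low: 8 Schwann cell and glial genes summed to at most 234, 8 immune genes to at most 70.1 and 7 epithelial genes to at most 272. SOX10 and KRT5 were listed at 0 in all control libraries.

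The PTBP family came first in size of change, through PTBP3. PTBP3 fell in both BPS1 and BPS2 cells, PTBP2 fell in BPS1 cells, and PTBP1, by far the most abundant of the 3, passed no test. PTBP3 (ENSG00000119314, chr9:112217716-112333667, - strand) had 641, 549, 587 and 247 normalized counts in the 4 BPS1 libraries. It had 314, 277, 243 and 468 in the 4 BPS2 libraries. In the 4 control libraries it had 683, 947, 1427 and 1068. Every BPS1 and every BPS2 library lay below every control library, although the highest BPS1 value came close to the lowest control value. BPS1 replicate 4 was the lowest of its group and control replicate 1 the lowest of its own. The means were 506 ± 177 with BPS1, 326 ± 99.4 with BPS2 and 1031 ± 309 in control cells (SD, n = 4 each), which is 2.09-fold lower with BPS1 and 3.15-fold lower with BPS2 on the fitted scale. The log2 fold change was -1.07 ± 0.30 for BPS1 against control (SE, 95% interval -1.72 to -0.41, limma adjusted p = 0.0474). For BPS2 against control it was -1.66 ± 0.30 (SE, 95% interval -2.31 to -0.998, limma adjusted p = 0.0181), the 37th lowest of the 20454 genes tested. BPS2 and BPS1 libraries overlapped, and the difference of -0.59 between them did not pass (95% interval -1.25 to 0.07, limma adjusted p = 0.353).

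The PTBP3 calls depended on single libraries. With BPS1 the call was lost without any one of BPS1 replicates 2, 3 and 4, BPS2 replicates 1, 2 and 3, and control replicates 2, 3 and 4 (limma adjusted p between 0.0566 and 0.135). With BPS2 it was lost without any one of BPS2 replicates 1, 2 and 3 or control replicates 2, 3 and 4 (limma adjusted p between 0.055 and 0.0736). The BPS1 call was lost with quantile scaling as well (limma adjusted p = 0.0506). The direction held in each of these. With control replicate 1 and BPS1 replicate 4 both left out, the values were -0.93 for BPS1 (limma adjusted p = 0.0144) and -1.84 for BPS2 (limma adjusted p = 5.14e-04). In that fit BPS2 also differed from BPS1, by -0.90 (limma adjusted p = 0.0106), as it did without BPS1 replicate 4 alone (limma adjusted p = 0.0363) and with library weights (-0.84, limma adjusted p = 0.017). PTBP3 varied between replicates more than most genes, with a residual SD of 0.504 on the log2 scale, higher than that of 98.0% of 2180 genes of similar level. The genes on either side did not pass a test. SUSD1, which ends 42308 bases before PTBP3, differed from control by -0.06 with BPS1 and 0.33 with BPS2. HSDL2, 46270 bases after it, differed by 0.06 with BPS1 and -0.13 with BPS2.

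PTBP2 (ENSG00000117569, chr1:96721665-96823738, + strand) had 1146, 1057, 1057 and 992 normalized counts in BPS1 libraries. BPS2 libraries held 1049, 1158, 1245 and 1056, and control libraries 1295, 1309, 1359 and 1395. All 8 treated libraries lay below all 4 control libraries, and BPS1 and BPS2 overlapped. The means were 1063 ± 63.4 with BPS1, 1127 ± 93.4 with BPS2 and 1339 ± 46.3 in control cells (SD, n = 4 each). PTBP2 fell by 0.33 on the log2 scale in BPS1 cells (SE 0.08, 95% interval -0.50 to -0.17, limma adjusted p = 0.0175). The BPS2 difference was -0.25 (95% interval -0.42 to -0.09) and did not pass over all genes (limma adjusted p = 0.183). Without control replicate 1 and BPS1 replicate 4, picked from these same data, it was -0.27 with BPS2 (limma adjusted p = 0.0379). Library weights gave -0.25 (limma adjusted p = 0.0409). The 2 treatments differed by 0.08, BPS2 over BPS1 (95% interval -0.08 to 0.25, limma adjusted p = 0.662). The BPS1 call was lost without control replicate 3 (limma adjusted p = 0.0501) and without control replicate 4 (limma adjusted p = 0.0503).

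PTBP1 (ENSG00000011304, chr19:797075-812327, + strand) had 14826, 14555, 13670.4 and 12564 normalized counts in BPS1 libraries. BPS2 libraries held 14417, 13824, 13689.5 and 14472, and control libraries 12784, 13684, 13284 and 15267. The 3 groups overlapped throughout, with the highest and the lowest value in control replicate 4 and BPS1 replicate 4. The log2 fold change was 0.02 for BPS1 (95% interval -0.13 to 0.17, limma adjusted p = 0.926) and 0.04 for BPS2 (95% interval -0.11 to 0.19, limma adjusted p = 0.889). PTBP1P, a processed pseudogene, reached at most 1.04 in any library, so it took few of the reads.

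**Figure D1:**
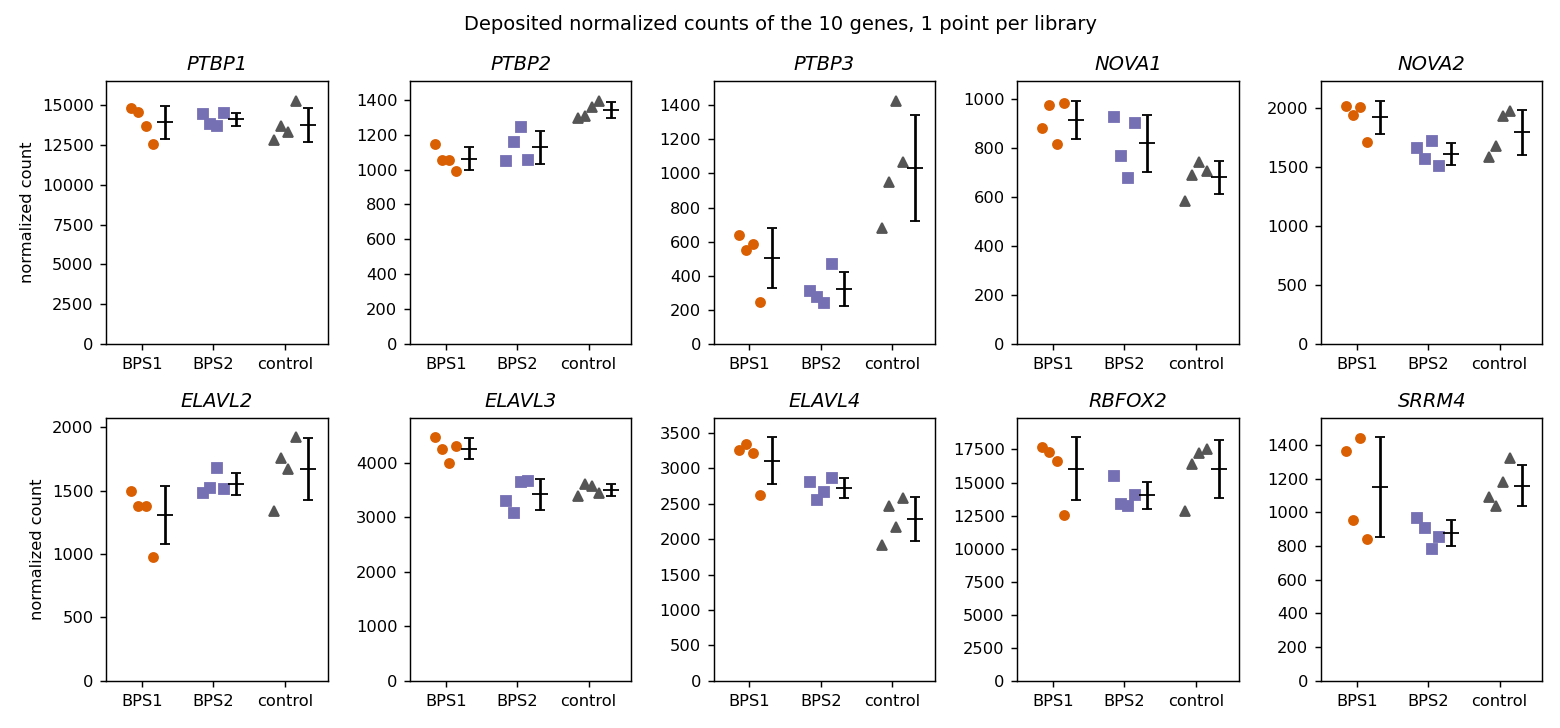
Normalized counts of the 10 genes, 1 panel per gene and 1 point per library, with BPS1, BPS2 and control along the horizontal axis and the mean and SD of each group beside the points. PTBP3 and PTBP2 points of both treatments lie below all control points, ELAVL4 and NOVA1 points of BPS1 lie above them, and the 3 groups of PTBP1 overlap.

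Set on a common scale of normalized count per kb of mean transcript length, the PTBP sums of the 3 groups overlapped. The sum was 9084 ± 690 with BPS1, 9182 ± 234 with BPS2 and 9234 ± 697 in control cells (SD, n = 4 each). PTBP1 made up 94.1 ± 0.383% of that sum with BPS1, 94.4 ± 0.357% with BPS2 and 91.5 ± 0.923% in control cells. PTBP2 made up 4.49 ± 0.162% with BPS1, 4.71 ± 0.507% with BPS2 and 5.57 ± 0.263% in control cells. The PTBP3 share was 1.42 ± 0.44% with BPS1, 0.914 ± 0.258% with BPS2 and 2.89 ± 0.85% in control cells (SD, n = 4 each). PTBP3 shares of all 8 treated libraries, at most 1.71%, lay below the lowest control share of 2.07%. These shares depend on the annotated transcript lengths and carry no test of their own.

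**Figure D2:**
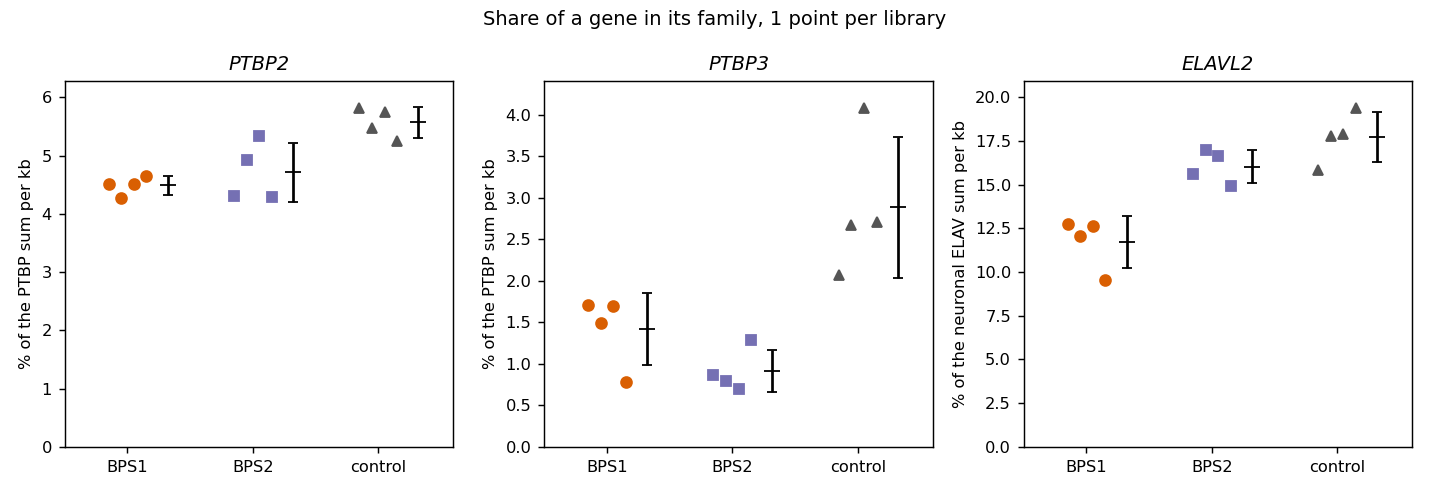
Percent share of a gene in the sum of its family, in normalized counts per kb of mean transcript length, with 1 point per library and the mean and SD of each group beside the points. The PTBP3 share lies at or under 1.71% in BPS1 and BPS2 libraries and at or over 2.07% in control libraries, and the ELAVL2 share is lowest in BPS1 libraries.

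Among the neuronal Hu genes, ELAVL3 and ELAVL4 rose in BPS1 cells, and no member of the family passed in BPS2 cells against control. ELAVL4 (ENSG00000162374, chr1:50048014-50203786, + strand), the HuD gene, had 3253, 3341, 3220.3 and 2618 normalized counts with BPS1. It had 2801, 2559, 2669.9 and 2867 with BPS2 and 1912, 2468, 2171 and 2588 in control cells. BPS1 libraries lay above all control libraries, but BPS1 replicate 4 lay close to control replicate 4, and BPS2 overlapped both. ELAVL4 rose by 0.45 on the log2 scale with BPS1 (SE 0.10, 95% interval 0.22 to 0.67, limma adjusted p = 0.0181). The BPS2 difference was 0.26 (95% interval 0.04 to 0.49, limma adjusted p = 0.339). BPS2 and BPS1 differed by -0.18 (95% interval -0.41 to 0.04, limma adjusted p = 0.403), and by -0.26 with library weights (limma adjusted p = 0.0227). The BPS1 call was lost without BPS1 replicate 2, BPS1 replicate 3 or control replicate 3 (limma adjusted p between 0.0537 and 0.056).

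ELAVL3 (ENSG00000196361, chr19:11451326-11481046, - strand), the HuC gene and a common marker of newborn neurons, had 4464, 4257, 3992 and 4300.4 normalized counts with BPS1. It had 3292, 3079, 3640.6 and 3655 with BPS2 and 3381, 3612, 3569 and 3434 in control cells. All BPS1 libraries were above all BPS2 and all control libraries, while BPS2 and control libraries overlapped. ELAVL3 rose by 0.28 with BPS1 against control (SE 0.07, 95% interval 0.13 to 0.43, limma adjusted p = 0.0248). BPS2 against control gave -0.04 (95% interval -0.19 to 0.11, limma adjusted p = 0.893). BPS2 was lower than BPS1 by 0.32 on the log2 scale (SE 0.07, 95% interval -0.47 to -0.17, limma adjusted p = 0.0212). With a GC trend removed from each library the BPS1 difference was 0.18 and no longer passed (limma adjusted p = 0.269), nor did the difference between treatments (limma adjusted p = 0.103). The transcripts of ELAVL3 are 64.2% G and C, the highest of the 10 genes. The BPS1 call was also lost without BPS1 replicate 1 or 2 or any one control library (limma adjusted p between 0.0504 and 0.0646). The call between treatments was lost without BPS1 replicate 1 or 2 or BPS2 replicate 1 or 2 (limma adjusted p between 0.0603 and 0.0747).

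ELAVL2 (ENSG00000107105, chr9:23690104-23826337, - strand), the HuB gene, had 1496, 1378, 1379 and 980.1 normalized counts with BPS1. It had 1485, 1522, 1676 and 1516 with BPS2 and 1337, 1755, 1672 and 1921 in control cells. BPS1 and control overlapped, control replicate 1 being the lowest of its group. The difference was -0.36 for BPS1 (95% interval -0.65 to -0.07, limma adjusted p = 0.126) and -0.10 for BPS2 (95% interval -0.39 to 0.19, limma adjusted p = 0.846). The BPS1 difference passed with library weights, at -0.31 (limma adjusted p = 0.0214), and without control replicate 1 and BPS1 replicate 4, at -0.33 (limma adjusted p = 0.0102). Per kb, ELAVL2 made up 11.7 ± 1.48% of the Hu sum with BPS1, 16.0 ± 0.948% with BPS2 and 17.7 ± 1.45% in control cells (SD, n = 4 each). BPS1 shares, at most 12.7%, lay below the lowest BPS2 share of 14.9% and the lowest control share of 15.8%. ELAVL1, the widely expressed relative HuR, had 4086 ± 297 normalized counts with BPS1, 4159 ± 166 with BPS2 and 3906 ± 79.1 in control cells and passed no test.

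NOVA1 rose in BPS1 cells, and NOVA2 passed no test with equal library weights. NOVA1 (ENSG00000139910, chr14:26443093-26597754, - strand) had 884, 976, 817 and 983 normalized counts with BPS1. It had 927, 769, 679 and 904 with BPS2 and 582, 691, 742 and 706 in control cells. BPS1 libraries lay above all control libraries, and BPS2 libraries spanned the gap between them. NOVA1 rose by 0.43 with BPS1 (SE 0.12, 95% interval 0.18 to 0.68, limma adjusted p = 0.0363). The BPS2 difference was 0.26 (95% interval 0.01 to 0.51, limma adjusted p = 0.401). The BPS1 call was lost in 7 of 12 single omissions, those of BPS1 replicates 1, 2 and 4, BPS2 replicate 2 and control replicates 1, 2 and 4 (limma adjusted p between 0.0515 and 0.0969), and without control replicate 1 and BPS1 replicate 4 together (limma adjusted p = 0.0913).

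NOVA2 (ENSG00000104967, chr19:45933734-45973546, - strand) had 2013, 1939, 2005 and 1709 normalized counts with BPS1. It had 1656, 1565, 1716 and 1506 with BPS2 and 1584, 1676, 1931 and 1972 in control cells. Control libraries spanned nearly the whole range of the other groups. The differences were 0.10 for BPS1 (95% interval -0.09 to 0.29, limma adjusted p = 0.556) and -0.15 for BPS2 (95% interval -0.34 to 0.04, limma adjusted p = 0.578). BPS2 against BPS1 gave -0.25 (95% interval -0.44 to -0.06, limma adjusted p = 0.157). That difference was -0.30 and passed without BPS1 replicate 4 (limma adjusted p = 0.0423) and with library weights (limma adjusted p = 0.0084). The NOVA1 share of the NOVA sum per kb was 46.1 ± 3.78% with BPS1, 47.5 ± 4.54% with BPS2 and 40.5 ± 1.48% in control cells (SD, n = 4 each).

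RBFOX2 and SRRM4 passed no test with equal library weights, and each passed at least 1 when limma estimated a weight for each library. RBFOX2 (ENSG00000100320, chr22:35738736-36028425, - strand) had 17673, 17327, 16658 and 12547 normalized counts with BPS1. It had 15489.8, 13375, 13229 and 14071 with BPS2 and 12821, 16411, 17245 and 17559 in control cells. BPS1 replicate 4 and control replicate 1, the libraries that stood apart, were the lowest of their groups. The difference was 0.0016 for BPS1 (95% interval -0.26 to 0.26, limma adjusted p = 0.996) and -0.18 for BPS2 (95% interval -0.44 to 0.08, limma adjusted p = 0.628). Without those libraries RBFOX2 was lower with BPS2 than in control cells, with a log2 difference of -0.28 (limma adjusted p = 0.00904), and lower with BPS2 than with BPS1, with a difference of -0.30 (limma adjusted p = 0.00333). With library weights the values were -0.26 for BPS2 against control (limma adjusted p = 0.0427) and -0.29 for BPS2 against BPS1 (limma adjusted p = 0.0109).

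SRRM4 (ENSG00000139767, chr12:118981495-119163051, + strand) had 1364, 952, 1438 and 840.1 normalized counts with BPS1. It had 969, 905, 782 and 853 with BPS2 and 1091, 1040.1, 1181 and 1322 in control cells. BPS2 libraries all lay below the control libraries, while BPS1 libraries lay on both sides of them. The difference was -0.04 for BPS1 (95% interval -0.38 to 0.30, limma adjusted p = 0.908) and -0.40 for BPS2 (95% interval -0.74 to -0.06, limma adjusted p = 0.339). BPS2 against BPS1 gave -0.36 (limma adjusted p = 0.269), and without control replicate 1 and BPS1 replicate 4 it gave -0.49 (limma adjusted p = 0.0306). The value was also -0.49 without BPS1 replicate 4 alone (limma adjusted p = 0.0441) and with library weights (limma adjusted p = 0.0203). REST, a repressor of neuronal genes whose splicing SRRM4 is known to alter, had 261 ± 48.9 normalized counts with BPS1, 259 ± 36.9 with BPS2 and 208 ± 54.9 in control cells (SD, n = 4 each), and passed no test.

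With BPS1, 5 of the 10 genes were called against control, beside 8.6% of the 20454 genes tested. Of these, 3 were higher, beside 4.29% of all genes, and 2 lower, beside 4.32%. The groups of the same 5 genes did not overlap, beside 14.3% of all genes tested. With BPS2, 1 of 10 was called, PTBP3, beside 1.21% of genes tested. It was lower, beside 0.386% of all genes, and 0 were higher in the limma fit, beside 0.821%. PTBP2, PTBP3 and SRRM4 did not overlap between BPS2 and control, beside 9.65% of all genes. Between BPS2 and BPS1, 1 of 10 was called, ELAVL3, beside 3.93%. It was lower, beside 1.63% of all genes, and 0 were higher in the limma fit, beside 2.3%. ELAVL3 was also the 1 member whose BPS2 and BPS1 groups did not overlap, beside 11.9%. At an unadjusted p under 0.05 6 members were counted with BPS1 beside 22.5% of all genes, 5 with BPS2 beside 11.4% and 3 between BPS2 and BPS1 beside 17.1%. For each gene whose groups did not overlap, the exact two-sided permutation test over 70 arrangements gave p = 0.0286, the smallest it can give. The median log2 fold change of the 10 genes was 0.01 for BPS1, -0.12 for BPS2 and -0.18 for BPS2 against BPS1, beside -0.00036, 0.0025 and -0.0026 over all genes tested. Both comparisons with control use the same 4 control libraries. With control replicate 1 and BPS1 replicate 4 left out, the counts were 5 with BPS1, where ELAVL2 took the place of NOVA1, and 3 with BPS2, namely PTBP2, PTBP3 and RBFOX2. Between BPS2 and BPS1 the count was then 6, all lower with BPS2: PTBP3, NOVA2, ELAVL3, ELAVL4, RBFOX2 and SRRM4. In that fit more genes passed altogether, 13.6% with BPS1, 9.34% with BPS2 and 17.1% between BPS2 and BPS1. Weighting the libraries gave the same 6 members between BPS2 and BPS1. Neither fit removed a GC trend. The rank correlation of a library's deviations with GC content, over protein-coding genes, was 0.35 in BPS1 replicate 4 and 0.23 in control replicate 1. In the other BPS1 and control libraries it was -0.22 to -0.096. BPS2 replicates 2, 3 and 4 had 0.17, 0.21 and 0.12, and replicate 1 had -0.16. With the GC trend removed from all 12 libraries at equal weights, 0 members passed between BPS2 and BPS1, with 951 genes called. The fit of all 12 libraries without that removal had 1 member and 803 genes. The part of GC in the 6 differences was not tested. With no filter on low values PTBP3, NOVA1 and ELAVL3 lost their BPS1 calls, and with only BPS1 and control libraries in the fit PTBP2 alone kept its call. Genes called with BPS1 were then 1267 and 907, beside 1760 in the fit of all 12 libraries. The ELAVL3 call between BPS2 and BPS1 was lost with no filter (limma adjusted p = 0.0534) and with only BPS2 and BPS1 libraries in the fit (limma adjusted p = 0.0648).

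**Figure D3:**
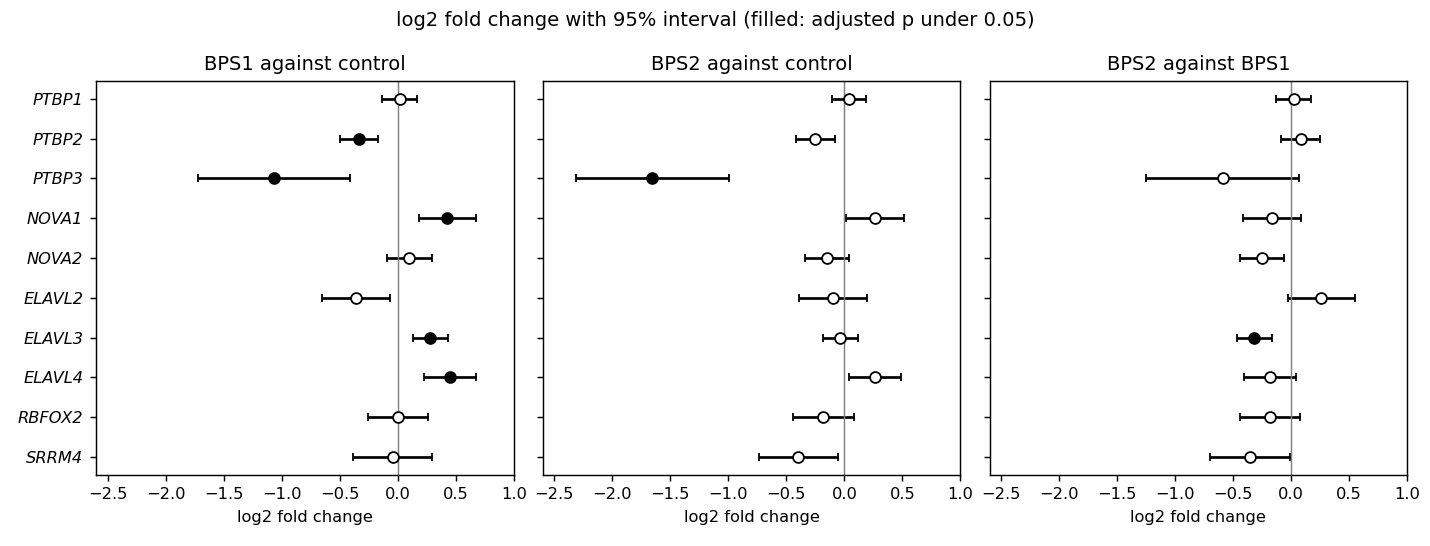
Log2 fold change of each gene on the horizontal axis with its 95% interval, 1 panel per comparison; filled points passed an adjusted p of 0.05. PTBP3 has the lowest values and the widest intervals, at -1.07 for BPS1 and -1.66 for BPS2 against control, and the other 9 genes lie between -0.40 and 0.45 in all 3 comparisons.

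The 10 genes differed in level far more than any of them changed. Per kb of mean transcript length, RBFOX2 stood at 9431 ± 1395 normalized counts with BPS1, 8250 ± 607 with BPS2 and 9406 ± 1281 in control cells (SD, n = 4 each). PTBP1 stood at 8545 ± 627 with BPS1, 8666 ± 247 with BPS2 and 8454 ± 660 in control cells. Their library ranges overlapped in every group, so the order between them is not fixed, and in control cells they were above 98.0% and 97.7% of 14251 protein-coding genes. ELAVL3 followed at 2508 ± 115 with BPS1, 2014 ± 166 with BPS2 and 2063 ± 64.3 in control cells, and its ranges overlapped with no neighbour. ELAVL4 was next, at 1540.4 ± 164 with BPS1, 1350.2 ± 68.0 with BPS2 and 1132 ± 151 in control cells. In control cells ELAVL2, NOVA2, PTBP2, SRRM4 and NOVA1 lay close together, at means of 691, 591, 513, 455 and 402 per kb, and each overlapped at least 1 neighbour. PTBP3 was lowest in every group, at 131 ± 45.8 per kb with BPS1, 84.3 ± 25.8 with BPS2 and 267 ± 80.0 in control cells, where its range overlapped that of NOVA1. It stood above 31.9% of protein-coding genes with BPS1, 26.9% with BPS2 and 42.4% in control cells. RBFOX2, PTBP1 and ELAVL3 held the top 3 places with the longest or the shortest protein-coding transcript as the length too, but the order of the other genes, PTBP3 included, changed with the length used.

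**Figure D4:**
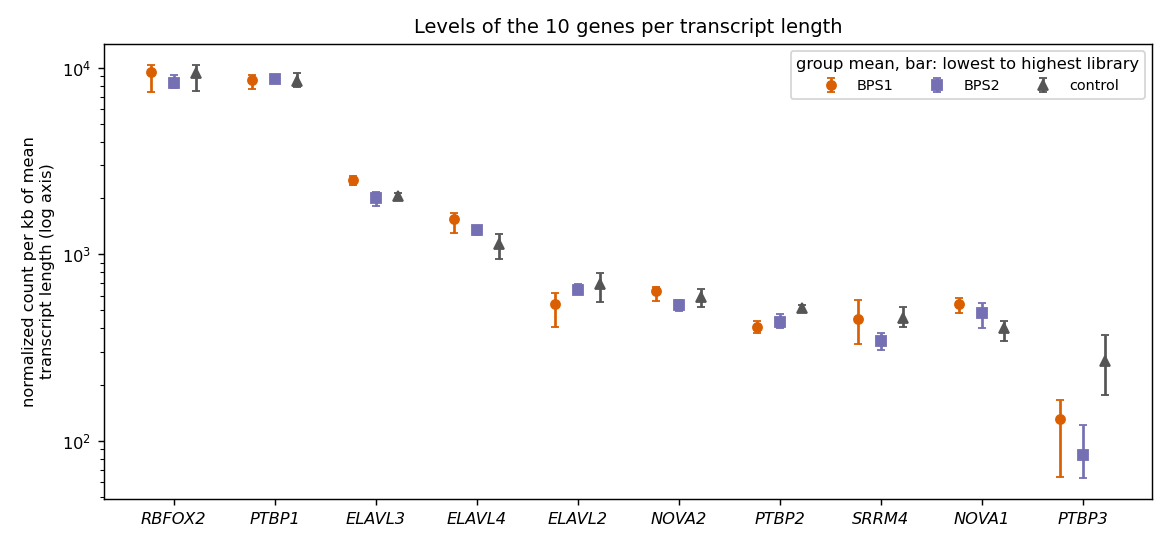
Normalized count per kb of mean transcript length, on a log axis, for the 10 genes in the order of their control level. Points are the means of BPS1, BPS2 and control libraries and bars run from the lowest to the highest library; RBFOX2 and PTBP1 lie between 8250 and 9431 per kb, and PTBP3 lies lowest in all 3 groups.

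The genes whose profile over the 12 libraries was most like that of a called member were found by the root mean square difference of centred log2 values, among 13974 genes with a mean of at least 50. PTBP3 had no close match: its nearest gene was AL050343.1 at 0.360, followed by SMCHD1, POTEH, PGAP1 and AC139494.6 at up to 0.487, against 0.813 for a flat profile. AL050343.1 differed from control by -0.63 with BPS1 (limma adjusted p = 0.070) and fell by 1.27 with BPS2 (limma adjusted p = 0.0069). For PTBP2 the nearest were FIRRE at 0.062, LINC00632, FAM155A, RIMS3 and LARS2, against 0.162 for a flat profile. For NOVA1 they were DCLK2 at 0.100, FBXL18, CDC37L1, ARL14EP and POFUT2, against 0.228. GLUD1 at 0.068, NEUROD1, SETDB1, CBX6 and CNOT10 were nearest to ELAVL3, against 0.159. AKAP12 at 0.065, MEF2D, ABCE1, AL356489.2 and TBX3 were nearest to ELAVL4, against 0.226.

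The nearest tested genes on either side of each of the 10 members, 20 in all, passed no test in any of the 3 comparisons. Within RBFOX2 lies Z82217.1 on the other strand, with 45.6 ± 10.0 normalized counts with BPS1, 53.6 ± 8.03 with BPS2 and 59.8 ± 17.1 in control cells. ELAVL3 shares its strand and part of its span with AC008481.3, at 18.9 ± 4.97 with BPS1, 13.5 ± 5.86 with BPS2 and 15.0 ± 7.30 in control cells. Both are small beside the member they overlap.

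Of 9 genes for PTBP co-repressors and epithelial splicing regulators, 8 were tested, and in BPS1 cells 2 rose and 1 fell. Counts of this list and those below stand beside 8.6% of all genes called with BPS1 and 1.21% with BPS2. MATR3, which binds PTBP1 and represses exons with it, had 24546 ± 1755 normalized counts with BPS1, 21390.5 ± 107 with BPS2 and 20081 ± 610 in control cells, and rose by 0.29 with BPS1 (SE 0.06, limma adjusted p = 0.00776). RAVER2, a PTBP-binding corepressor, had 901 ± 45.0 with BPS1, 1046 ± 40.0 with BPS2 and 1196 ± 49.5 in control cells, and fell by 0.41 with BPS1 (SE 0.07, limma adjusted p = 0.00266). HNRNPLL, a splicing regulator first described in T cells, rose by 0.33 with BPS1 (limma adjusted p = 0.032), a call lost in 5 of 12 omissions (BPS1 replicates 2 and 3 and control replicates 2, 3 and 4). The other 5, RAVER1, HNRNPL, ESRP2, RBM4 and RBM20, passed no test, and 0 of the 8 passed limma with BPS2, 2 of them having an unadjusted p under 0.05. The median of the 8 was 0.15 with BPS1 and -0.0020 with BPS2, beside -0.00036 and 0.0025 over all genes.

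Among other relatives of the members, RBFOX1, RBFOX3, SRRM3 and ELAVL1 passed no test with either oligonucleotide (medians -0.11 and -0.11). RBFOX3 encodes the mature neuron antigen NeuN and was near the limit of the filter, at 17.1 ± 5.78 normalized counts with BPS1, 23.5 ± 9.67 with BPS2 and 24.5 ± 8.08 in control cells. Of 13 CELF, MBNL, QKI and KHDRBS genes, 12 were tested and 1 rose with BPS1 (medians 0.05 with BPS1 and 0.12 with BPS2). That gene, KHDRBS3 (T-STAR or SLM2), which controls exons of neurexins in mouse brain, had 920.2 ± 186 normalized counts with BPS1, 721 ± 133 with BPS2 and 564 ± 45.2 in control cells. It rose by 0.69 with BPS1 (SE 0.16, limma adjusted p = 0.0159) and had a difference of 0.34 with BPS2 (limma adjusted p = 0.441). Its BPS1 libraries all lay above its control libraries, and its call held in all 12 omissions. MBNL3, of the muscleblind family, had 204 ± 38.6 normalized counts with BPS1, 134 ± 22.7 with BPS2 and 215 ± 41.4 in control cells. Its BPS2 difference was -0.67 and did not pass (limma adjusted p = 0.107).

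Of 22 hnRNP genes tested, 3 rose and 2 fell with BPS1, and 1 fell with BPS2, beside 8.6% and 1.21% of all genes called. SYNCRIP (hnRNP Q) fell by 0.49 with BPS1 (SE 0.11, limma adjusted p = 0.014) and was higher with BPS2 than with BPS1 by 0.50 (limma adjusted p = 0.0207). TARDBP fell by 0.28 with BPS1 (limma adjusted p = 0.0311). PCBP1 rose by 0.39 (limma adjusted p = 0.017), PCBP3 by 0.55 (limma adjusted p = 0.0308) and HNRNPH3 by 0.20 (limma adjusted p = 0.025) with BPS1. HNRNPA1, which like PTBP1 represses the PKM exon used in adult muscle and brain, fell by 0.22 with BPS2 (limma adjusted p = 0.0479), a call kept in 1 of 12 omissions, that of BPS1 replicate 4. The SYNCRIP call with BPS1 held in all 12 omissions. The PCBP1 call was lost without control replicate 3 or 4, and the PCBP3 call without BPS1 replicate 2 or 3 or control replicate 2 or 3. That of TARDBP was lost without BPS1 replicate 2 or 3 or control replicate 1, 2 or 3, and that of HNRNPH3 without BPS1 replicate 1, 2 or 3 or control replicate 3 or 4. The SYNCRIP difference between treatments lost its call without BPS1 replicate 3 or BPS2 replicate 1, 2 or 3. HNRNPH3 was lower with BPS2 than with BPS1 by 0.20 (limma adjusted p = 0.0412), a call lost in 10 of 12 omissions. The median of the list was 0.02 with BPS1 and 0.01 with BPS2. Of 14 SR protein genes, SRSF2 fell by 0.37 with BPS1 (SE 0.08, limma adjusted p = 0.0163), a call lost without BPS1 replicate 2 or 3, and 0 passed limma with BPS2, 1 of them having an unadjusted p under 0.05 (medians -0.08 and -0.01).

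Of 15 genes whose transcripts PTBP proteins are known to control, 1 rose and 2 fell with BPS1, and 1 rose with BPS2. Over all genes, 8.6% were called with BPS1 and 1.21% with BPS2. TPM1, a tropomyosin with a PTBP-repressed exon, had 8694 ± 1268 normalized counts with BPS1, 7605 ± 193 with BPS2 and 5144 ± 627 in control cells. All 8 treated libraries, at least 7460.4, lay above the highest control library at 5895. TPM1 rose by 0.75 with BPS1 (SE 0.10, limma adjusted p = 6.33e-04) and by 0.57 with BPS2 (SE 0.10, limma adjusted p = 0.0156), and the BPS2 call was lost in 5 of 12 omissions (BPS2 replicates 2, 3 and 4 and control replicates 2 and 3).

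VAMP2, a synaptic vesicle protein, fell by 0.40 with BPS1 (SE 0.08, limma adjusted p = 0.00745), and KIF5A, a neuronal kinesin, fell by 0.37 (SE 0.09, limma adjusted p = 0.0207). The KIF5A call was lost without BPS1 replicate 2 or control replicate 2, 3 or 4. PKM, whose 2 pyruvate kinase isoforms depend on PTBP1, was higher with BPS2 than with BPS1 by 0.24 (SE 0.05, limma adjusted p = 0.012) and passed neither test against control. VAMP2 was higher with BPS2 than with BPS1 by 0.32 (limma adjusted p = 0.0374), a call lost in 9 of 12 omissions. The median of the 15 genes was 0.0028 with BPS1 and 0.03 with BPS2, near the medians over all genes. These are gene totals, so a change in exon use within them was not measured.

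**Figure D5:**
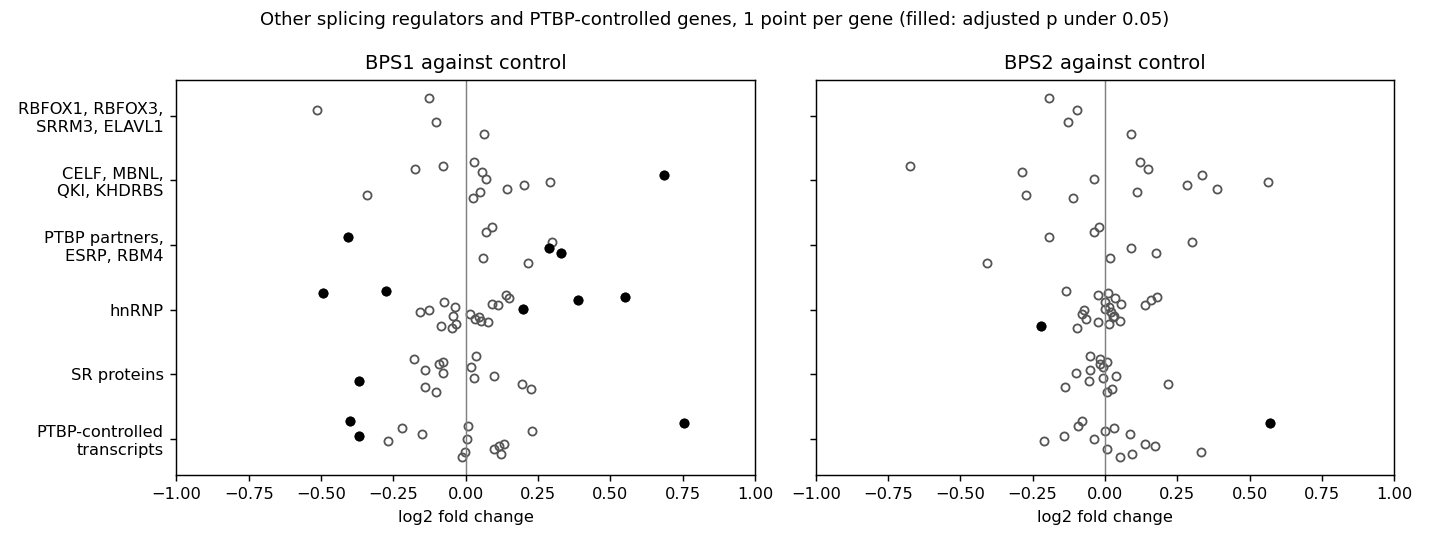
Log2 fold change on the horizontal axis for each tested gene of 6 lists of splicing regulators and PTBP-controlled genes, with 1 point per gene and 1 panel for each of BPS1 and BPS2 against control; filled points passed an adjusted p of 0.05. Points of every list lie on both sides of 0, with KHDRBS3 at 0.69, TPM1 at 0.75 and SYNCRIP at -0.49 among those passed with BPS1.

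Markers of neuronal and adrenergic state differed between the groups in which the members differed. The 11 postmitotic neuron markers summed to 36921 to 39030.3 normalized counts with BPS1, 40350.3 to 41821 with BPS2 and 46821 to 48139 in control cells, with no overlap. Much of that order came from STMN2, which had 3235 ± 595 with BPS1, 6651 ± 270 with BPS2 and 10858 ± 537 in control cells. In a sum chosen after the values were seen, the other 10 markers gave 34099 to 34914 with BPS1, 33794 to 34908 with BPS2 and 35521 to 37556 in control cells, so BPS1 and BPS2 overlapped. MAP2, DCX and NEFM had differences of 0.25, 0.31 and 0.10 with BPS1, none of which passed. Of these 11, 3 fell with BPS1: STMN2 by 1.76 (limma adjusted p = 6.31e-07), SNAP25 by 0.40 (limma adjusted p = 0.00274) and INA by 0.26 (limma adjusted p = 0.00936). With BPS2, 1 fell, STMN2 by 0.71 (limma adjusted p = 0.00396). Of the neuronal members, ELAVL3, ELAVL4 and NOVA1 rose with BPS1 in the same libraries, while PTBP2 fell by 0.33. ELAVL2, NOVA2 and SRRM4 had differences of -0.36, 0.10 and -0.04 with BPS1, none of which passed. Of the 13 adrenergic markers, 3 rose and 6 fell with BPS1, and 2, ISL1 and DDC, fell with BPS2, calls lost in 6 and 10 of 12 omissions. DDC, an enzyme of catecholamine synthesis, fell by 0.90 with BPS1 (limma adjusted p = 3.01e-04). Of 11 tested mesenchymal markers, 2 rose and 1 fell with BPS1, and 1 rose with BPS2. The list summed to 7646 to 9614 with BPS1, 8154 to 9253 with BPS2 and 7573 to 8200 in control cells. The 5 glial, 3 immune and 3 epithelial markers tested passed no test. Counts of called markers stand beside 8.6% of all genes with BPS1 and 1.21% with BPS2. The part of any marker list in the members' differences was not tested.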

How the data were processed

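Total RNA was depleted of ribosomal RNA and sequenced as single 100-base reads from stranded libraries, per the labels' protocols. Salmon 0.8.2, FastQC 0.11.7 and DESeq2 are named with build GRCh38 in the submitters' processing notes. How transcripts were summed to genes, and with which annotation, is not stated there. Deposited values are a normalized count (signal) for each gene and library, made by the authors. Of low values, 67.8% to 71.3% lay within 0.001 of whole multiples of 1 step. Only 23.6% of tested genes were whole multiples in all 12 libraries, so no count model was used.

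Values were taken as log2(value + 1), which understates changes of low genes. Genes with at least 10 in at least 4 libraries were fitted together with limma 3.58.1 (R 4.3.3; lmFit, contrasts.fit, eBayes with trend), group being the only term. Tests were two-sided, called at a Benjamini-Hochberg adjusted p under 0.05 over all 20454 genes, and checked on simulated data. Replicates differed by more than sampling noise, so each counted once. The members and gene lists were chosen with earlier results of these data known. Some genes of 2 lists are not reported here. Genes named beside the members were, per list, those called or with the smallest p, the nearest tested neighbours, the most similar profiles and NEAT1. Lengths, positions and exons come from GENCODE release 29, which held 53405 of 55771 identifiers. Alternatives were pseudocounts of 0.5 and 5, no filter, a minimum of 50, rescaling by quantiles or by median of ratios, robust variances, library weights, a replicate block, fits of only the groups compared, removal of a GC trend, and omission of libraries.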

Additional observations from a re-analysis of the deposited data

Results flagged for a closer look

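ELAVL3 was lower with BPS2 than with BPS1, and the test of that difference itself passed, with a log2 difference of -0.32 (limma adjusted p = 0.0212). BPS2 replicate values ran between 3079 and 3655 normalized counts and BPS1 values between 3992 and 4464, so the direction held for every library.

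ELAVL4 in BPS1 cells had 1 library far from the other 3: BPS1 replicate 4 held 2618 normalized counts. Its gap to the next library was 0.833 of the group's range, just over Dixon's critical value for 4 samples. This was the 1 flag in 30 groups checked, and chance gives about 1 in 20.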

How the results depend on the processing

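No pairing by replicate number was seen in the deviations, which does not exclude one. Same-numbered libraries correlated between -0.272 and 0.103, and libraries of different number and group between -0.212 and 0.424. With a replicate block 0, 0 and 0 members passed, with 1067, 118 and 447 genes (BPS1, BPS2, BPS2 against BPS1, an order kept below). Without the block 1760, 247 and 803 genes passed. Library weights gave 3382, 1296 and 3626 genes, with 3 members for BPS2 and 6 for BPS2 against BPS1. Omission of control replicate 1 and BPS1 replicate 4 gave 2774, 1910.0 and 3499 genes, with 3 members for BPS2 and 6 for BPS2 against BPS1. That pair was picked from these same data, so its counts are no independent check. With only the groups compared in the fit, BPS1 had 907 genes and 1 member, and BPS2 against BPS1 had 542 genes and 0 members. Without a filter 2 members passed for BPS1, with 1267 genes, and 0 for BPS2 against BPS1, with 594 genes. With the GC trend removed 0 members passed for BPS2 against BPS1, with 951 genes. Over the 12 single omissions genes called ranged from 1102 to 2372, 114 to 536 and 477 to 1764, and members called from 1 to 5, 0 to 1 and 0 to 4.

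Of the members' log2 fold changes over all alternatives, 625 kept direction and call, 57 lost the call, 20 gained it and 18 changed sign, none of which passed a test. For BPS1 against control PTBP1 gave -0.030 with the GC trend removed and -0.0074 with quantile scaling, and SRRM4 gave 0.093 with library weights and 0.07 without control replicate 1 and BPS1 replicate 4. For BPS2 against BPS1 PTBP1 gave -0.014 with library weights and -0.025 without those libraries. Over single omissions the ranges were -0.018 to 0.067 for PTBP1, -0.10 to 0.12 for RBFOX2 and -0.16 to 0.094 for SRRM4 (BPS1 against control), -0.071 to 0.011 for ELAVL3 (BPS2 against control) and -0.025 to 0.055 for PTBP1 (BPS2 against BPS1). Levels per kb moved with the length in all 60 values, and 199 list counts moved beside 881 that did not. The cause was not tested. The normalized counts give no read number for the members, so depth sets no interval here.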

Other observations

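Further gene lists bear on the members' known roles. Of 10 tested genes whose transcripts neuronal Hu proteins are known to bind, 1 rose and 2 fell with BPS1, beside 8.6% of all genes called in either direction (median -0.0035). CDKN1A, a cell cycle inhibitor, had 1077 ± 90.1 normalized counts with BPS1, 1922 ± 169 with BPS2 and 1634 ± 97.1 in control cells. It fell by 0.60 with BPS1 (limma adjusted p = 9.30e-04) and was higher with BPS2 than with BPS1 by 0.83 (limma adjusted p = 1.47e-04). MARCKS, a membrane substrate of protein kinase C, fell by 0.40 with BPS1 (limma adjusted p = 0.00979). FOS, an immediate early gene, had 212 to 461 normalized counts with BPS1, 174 to 607 with BPS2 and 32.9 to 245 in control cells. It rose by 2.38 with BPS1 (limma adjusted p = 0.0163), a call lost without BPS1 replicate 3 or control replicate 3, and gave 2.42 with BPS2 (limma adjusted p = 0.0513). MYCN had a difference of -0.19 with BPS1 (limma adjusted p = 0.115) and -0.02 with BPS2 (limma adjusted p = 0.942). With BPS2, 0 of the 10 passed limma, against 3 at an unadjusted p under 0.05.

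Of 12 genes for REST and its corepressors, RCOR3 rose by 0.28 with BPS1 (limma adjusted p = 0.0356), a call lost in 10 of 12 omissions, all but those of BPS1 replicate 4 and control replicate 4. With BPS2, 0 passed limma and 1 had an unadjusted p under 0.05 (medians 0.10 with BPS1 and 0.0064 with BPS2). Of 16 nonsense-mediated decay factors, RNPS1 rose by 0.30 with BPS1 (limma adjusted p = 0.0255), a call lost without control replicate 2, 3 or 4. With BPS2, 0 passed limma and 0 had an unadjusted p under 0.05 (medians 0.07 with BPS1 and 0.04 with BPS2).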
